A study of Mus musculus with 550 samples.

Results

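Gene expression was compared between whole blood of C57BL/6 mice taken 6 h after a single dose of dimethyl fumarate (DMF) at 179.2 mg/kg, on 7 arrays, and whole blood of C57BL/6 mice taken 6 h after the vehicle, 0.8% hydroxypropyl methylcellulose, on 6 arrays. These 13 arrays were chosen by their sample titles, out of 78 of whole blood and 550 in the series. Each array holds total RNA of 1 animal number, and the age and sex of the mice are not given in the sources used here. For comparison, values are also given for 6 h blood after DMF at 100 mg/kg, after calcium, magnesium and zinc salts of monoethyl fumarate (MEF) at 79.2 mg/kg, and after DMF at 100 mg/kg plus the MEF salts (8 arrays each). Blood taken at 12 h was used after DMF 179.2 (6 arrays) or vehicle (7 arrays), and from naive mice of the 12 h set (5 arrays). Spleen taken at 6 h after DMF 179.2 (7 arrays) or vehicle (8 arrays) completes the groups whose values are given.

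DMF is an ester of fumaric acid whose electrophilic double bond reacts with thiols. One known sensor of such compounds is KEAP1, which in unstressed cells holds the transcription factor NRF2 for degradation. Once released, NRF2 binds antioxidant response elements and raises genes of glutathione synthesis, quinone reduction and the thioredoxin system, in which thioredoxin reductase keeps thioredoxin reduced and thioredoxin in turn reduces peroxiredoxins. Mouse blood RNA comes from lymphocytes, neutrophils, monocytes, platelets and young red cells, so a level in whole blood can change with the mix of cells as well as with RNA per cell.

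DMF 179.2 raised 12 of the 17097 genes tested (0.0702%), and no gene was called lower. Of the 12, only Rnf128 and Clec4n were called also when the spread came from the 2 groups alone or from the 6 h arrays alone. A gene is called where limma's moderated test, over all whole blood arrays and adjusted by Benjamini-Hochberg over all genes, gave an adjusted p below 0.05. Before that adjustment 580 genes were higher at p below 0.05 (3.39%) and 692 were lower (4.05%). In order of p the 12 genes were Rnf128, Clec4n, Prdx1, Txnrd1, Mmp8, Acta2, Slc40a1, Abhd15, Txn1, Fbxl5, Pla2g7 and Piwil2. For 6 of them (Rnf128, Clec4n, Txnrd1, Acta2, Slc40a1 and Piwil2) every DMF array lay above every vehicle array, which was so for 21 of all genes (0.123%), and the reverse held for 8 genes (0.0468%). Levels below are deposited log2 values, changes are DMF minus vehicle on the log2 scale with the standard error (SE) of the fit, and 7 DMF and 6 vehicle arrays stand behind each. The p-values rest on the spread between arrays, 1 for each animal number, shared over all 11 groups of whole blood.

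**Figure D1:**
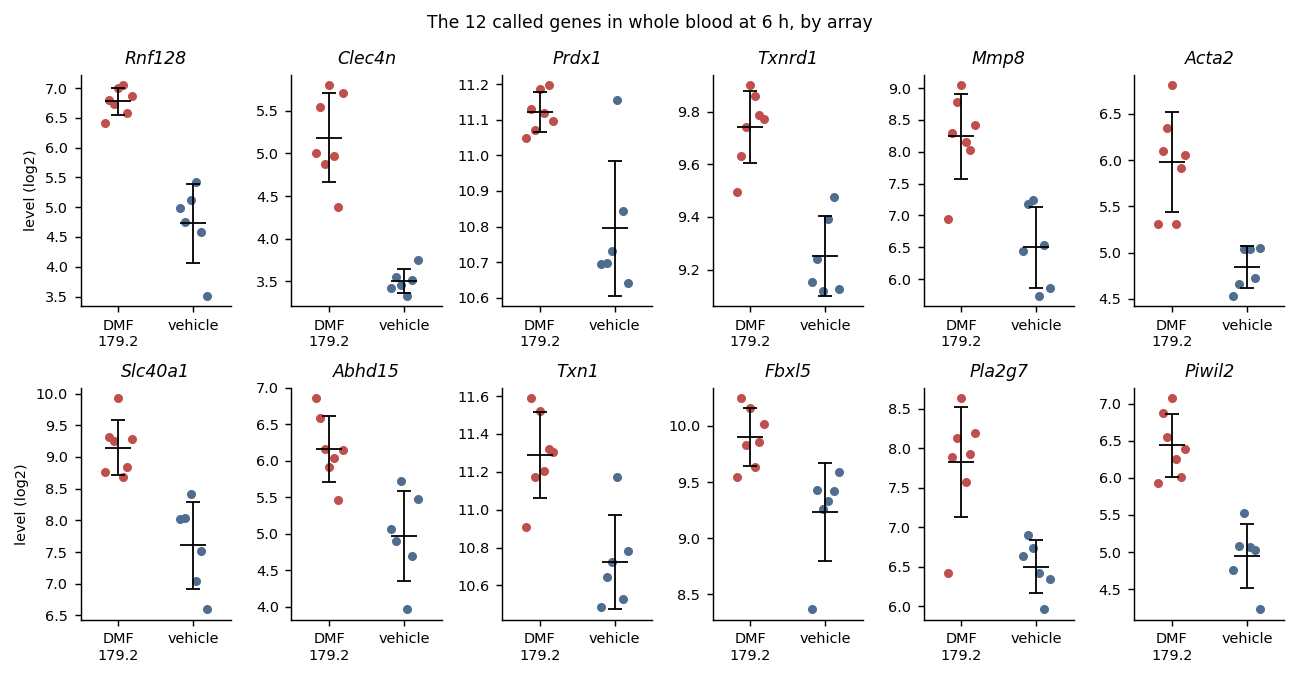
Level (log2) of the 12 called genes on each array at 6 h, with 7 DMF 179.2 arrays on the left of each panel and 6 vehicle arrays on the right. Horizontal bars are means and whiskers are SD, and each panel has its own vertical scale, not starting at 0. The groups do not overlap for Rnf128, Clec4n, Txnrd1, Acta2, Slc40a1 and Piwil2, while 1 vehicle array at 11.16 lies among the DMF arrays for Prdx1.

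The labelled tissue was checked against cell markers. Mean levels of the measured neutrophil, B cell, T cell, NK cell, monocyte, platelet and erythroid markers lay between 6.84 and 11.01 on every one of the 13 arrays, while hepatocyte markers averaged 3.33 to 3.61 and endothelial markers 3.10 to 3.38, close to the floor of 2.24 that deposited values do not go below. Between 23.7% and 26.2% of values per 6 h array lay at that floor. The 3′ minus 5′ control signal, a measure of RNA integrity (mean of the actin and Gapdh controls), was 1.76 ± 0.27 on DMF arrays and 1.81 ± 0.26 on vehicle arrays (SD), a difference of -0.05 (2-sided exact permutation test, p = 0.753). The vehicle arrays of animals 54 and 57 stood a little apart, with a median correlation with the other 6 h arrays of 0.982 and 0.985 across genes, against 0.992 to 0.996 on the other 11 arrays.

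Animal numbers were not spread evenly over the groups. Counted in runs of 12, the DMF mice held places 5, 6, 7, 9, 10, 11 and 12 and the vehicle mice places 1, 2, 3, 4, 6 and 7, with means of 8.57 and 3.83 (exact permutation test, 2-sided, p = 0.0117). What a place stands for is not given in the sources used here. Among 6 h arrays, after group means were removed, 191 genes were related to place, 60 rising and 131 falling, and none of the 12 called genes was among them. With place as a covariate 12 genes were called again, 11 higher and 1 lower. Of the original 12, 9 were called in both fits, and Txnrd1, Txn1 and Fbxl5 were not called with place (adjusted p = 0.0561, 0.0561 and 0.119). Each of the 12 changes stayed positive with place, from 0.31 to 2.26, a direction that their choice on the same arrays favours.

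Promoter sequence is shown for the 3 called genes whose window holds the core letters of an antioxidant response element, since this is the element through which NRF2 is known to act. The windows run from 250 bases before to 50 bases after a transcript start, in RefSeq on GRCm38.p6. The letters searched were TGACNNNGC and, for the other strand, GCNNNGTCA. Of the 12 called genes 8 had a window and 3 of those held a match, against 3781 of all 27025 genes with a window and 12.4% of all 32851 windows. Each sequence is 150 bases of the plus strand, which is the strand of all 3 genes, with the match in capitals.
Prdx1: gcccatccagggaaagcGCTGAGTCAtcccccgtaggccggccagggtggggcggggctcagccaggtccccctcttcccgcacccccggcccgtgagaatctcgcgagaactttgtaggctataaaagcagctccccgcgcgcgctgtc
Txnrd1: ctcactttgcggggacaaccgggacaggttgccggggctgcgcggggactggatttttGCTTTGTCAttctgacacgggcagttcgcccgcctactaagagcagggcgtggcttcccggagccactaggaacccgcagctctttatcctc
Pla2g7: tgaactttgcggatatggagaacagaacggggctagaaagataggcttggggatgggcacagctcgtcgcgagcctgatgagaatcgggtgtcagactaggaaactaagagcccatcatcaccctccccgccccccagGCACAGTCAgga
These runs lie at chr4:116685449-116685598 for Prdx1, chr10:82859056-82859205 for Txnrd1, which has 3 windows, and chr17:43568311-43568460 for Pla2g7. The match begins 133 bases before the transcript start used for Prdx1, 92 before that for Txnrd1 and 2 before that for Pla2g7, and for the last 2 genes this start lies inside the span of the gene. All 3 matches are on the minus strand, and the Prdx1 match also contains TGAGTCA, the letters of an AP-1 element, so the 2 motifs overlap there. A match of letters describes the sequence and shows no binding.

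All 3 of the called thioredoxin system genes rose by less than 1.5-fold on bright probe sets. Prdx1, a peroxiredoxin that reduces hydrogen peroxide (chr4:116685599-116700000), ranged from 11.05 to 11.20 with a median of 11.12 on DMF arrays, against 10.64 to 11.16 with a median of 10.72 on vehicle arrays. Its DMF values lay within a narrow band, and only the vehicle array of animal 54 reached into it. The change was 0.33 ± 0.06, a 1.25-fold rise (limma, adjusted p = 0.000973), and it was 0.40 without animal 54. A second probe set of Prdx1, at 10.18 on DMF and 10.02 on vehicle arrays, differed by 0.15.

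Txnrd1, which encodes cytosolic thioredoxin reductase (chr10:82833951-82897724), ranged from 9.50 to 9.90 with a median of 9.77 on DMF arrays, against 9.12 to 9.48 with a median of 9.20 on vehicle arrays. The groups did not overlap, although the lowest DMF array and the highest vehicle array differed by little. The change was 0.49 ± 0.09, or 1.40-fold (adjusted p = 0.00548 by limma). Its value with place was 0.44. Txn1, thioredoxin itself (chr4:57943373-57956411), ranged from 10.91 to 11.59 with a median of 11.30 on DMF arrays, against 10.49 to 11.17 with a median of 10.68 on vehicle arrays. Animal 54 again had the highest vehicle value, and the DMF array of animal 67 the lowest DMF value. The Txn1 change was 0.57 ± 0.12, or 1.48-fold (limma, adjusted p = 0.0395), and 0.59 with place.

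Among 23 measured members of a list of NRF2 target genes, Prdx1 and Txnrd1 were called higher, beside 0.0702% over all genes. None was called lower. At unadjusted p below 0.05, 9 members were higher and 0 lower (limma), beside 3.39% higher and 4.05% lower over all genes. The median change over the list was 0.17, against 0.00 over all genes, and 17 members had a positive change. The mean level over the list was 8.05 ± 0.15 on DMF arrays and 7.79 ± 0.05 on vehicle arrays (SD). Only the DMF array of animal 67, at 7.79, lay within the vehicle range of 7.74 to 7.86. Me1 and Aox1 were at the floor on all 13 arrays.

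The classical NRF2 markers were measured but not called. Nqo1, a quinone reductase, ranged from 6.43 to 8.41 with a median of 7.20 on DMF arrays, against 6.19 to 7.26 with a median of 6.95 on vehicle arrays. Its groups overlapped broadly, and the change of 0.43 ± 0.28 had an adjusted p of 0.884 by limma. Gclc encodes the catalytic subunit of glutamate-cysteine ligase, an enzyme of glutathione synthesis. Its DMF arrays ranged from 6.39 to 7.30 with a median of 6.70, and vehicle arrays from 5.86 to 6.58 with a median of 6.29. The Gclc change was 0.51 ± 0.17 (adjusted p = 0.348, limma). Hmox1, the inducible heme oxygenase that breaks down heme, ranged from 6.11 to 7.51 with a median of 7.10 on DMF arrays, against 4.93 to 7.77 with a median of 5.97 on vehicle arrays. The vehicle array of animal 54 was the highest of all 13 for Hmox1 and the DMF array of animal 67 the lowest of its group. The change was 1.01 ± 0.32 (limma, adjusted p = 0.319), and 1.35 without animal 54 (adjusted p = 0.0550).

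Further list members were chosen for naming after their values were seen. Gstm1, a glutathione transferase, did not overlap between the groups, at 7.45 to 8.11 on DMF arrays and 6.74 to 7.28 on vehicle arrays, and its change was 0.91 ± 0.24 with an adjusted p of 0.188 (limma). Glutathione reductase Gsr averaged 11.86 ± 0.10 on DMF arrays and 11.47 ± 0.32 on vehicle arrays (SD, adjusted p = 0.234), and Pgd of the pentose phosphate pathway 10.49 ± 0.33 and 9.87 ± 0.35 in the same order (SD, adjusted p = 0.283). None of these passed the adjustment over all genes.

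Rnf128 had the smallest p of all genes. It encodes an E3 ubiquitin ligase, also known as GRAIL, that has been studied for its part in T cell anergy (chrX:139563340-139673145). It ranged from 6.41 to 7.05 with a median of 6.80 on DMF arrays, against 3.51 to 5.43 with a median of 4.87 on vehicle arrays. All DMF arrays lay close together and well above the vehicle arrays, of which that of animal 57 was lowest. The change was 2.05 ± 0.25, a 4.14-fold rise (limma, adjusted p = 1.33e-07), and 2.26 with place. A second Rnf128 probe set was dim, at 3.11 on DMF arrays and 2.74 on vehicle arrays, and differed by 0.37.

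Clec4n, which encodes the C-type lectin Dectin-2, a receptor of myeloid cells for fungal mannans (chr6:123229843-123247024), was near the dim end of the scale. It ranged from 4.38 to 5.80 with a median of 5.01 on DMF arrays, against 3.33 to 3.74 with a median of 3.49 on vehicle arrays. Vehicle values were tightly grouped and every DMF value was above them. The change was 1.68 ± 0.24, or 3.21-fold (adjusted p = 1.34e-05 by limma), and 1.59 with place. Its probe set name carries the suffix that the array maker gives to probes shared by several transcripts, so transcripts of related lectins could add to this signal. The other Clec4n probe set differed by 0.36, at 3.62 ± 0.52 on DMF arrays and 3.26 ± 0.68 on vehicle arrays (SD).

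Mmp8, neutrophil collagenase (chr9:7558429-7568486), ranged from 6.95 to 9.05 with a median of 8.29 on DMF arrays, against 5.74 to 7.24 with a median of 6.49 on vehicle arrays. The groups overlapped through the DMF array of animal 67 alone. The change was 1.74 ± 0.34, or 3.35-fold (limma, adjusted p = 0.00763), and 1.94 with place. Mmp8 is also 1 of 8 measured neutrophil markers. It was the only one called, beside 0.0702% over all genes, 6 were higher at unadjusted p below 0.05, beside 3.39%, all 8 changes were positive and their median was 0.60, against 0.00 over all genes.

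The mean level of the 8 neutrophil markers was 9.88 ± 0.37 on DMF arrays and 9.07 ± 0.29 on vehicle arrays (SD), with ranges of 9.38 to 10.45 and 8.75 to 9.47 that overlapped through animal 67 among DMF mice and animal 53 among vehicle mice. No member was at the floor. Mmp9, gelatinase of neutrophil granules, ranged from 9.57 to 10.47 on DMF arrays and from 8.25 to 9.49 on vehicle arrays, a change of 1.10 ± 0.32 (limma, adjusted p = 0.257). Csf3r, the receptor for the neutrophil growth factor G-CSF, averaged 9.20 ± 0.64 on DMF arrays and 8.15 ± 0.42 on vehicle arrays (SD, adjusted p = 0.257). The alarmin S100a9 did not overlap between the groups, with a change of 0.43 ± 0.14 (adjusted p = 0.348, limma). Mmp9, Csf3r and S100a9 were chosen for naming after their values were seen. In bulk blood more neutrophils and more RNA per neutrophil cannot be told apart.

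With the mean level of the 7 neutrophil markers other than Mmp8 as a covariate, added after the data were seen, 4 genes were called, Rnf128, Clec4n, Prdx1 and Txnrd1. Their changes in that fit were 1.62, 1.40, 0.33 and 0.49. Mmp8 had 0.81 (adjusted p = 0.0806) and Slc40a1 0.55 (adjusted p = 0.0807), and the median over the 12 genes was 0.69, against 1.26 without the covariate.

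Other blood cell lists had no called member, and counts at unadjusted p below 0.05 are to be read beside 3.39% higher and 4.05% lower over all genes. NK cell markers had a median change of 0.36 with 3 of 9 higher at unadjusted p below 0.05, and 0.06 with 0 of 9 when the vehicle array of animal 54 was left out. On that list the lowest vehicle array averaged 6.84 and the vehicle median was 8.21, against 8.12 to 8.45 on DMF arrays. Monocyte markers had a median of 0.07, T cell markers 0.02, B cell markers -0.03, platelet markers 0.14 and erythroid markers -0.08. Without the vehicle array of animal 54 these medians were 0.21, -0.10, -0.05, -0.0053 and -0.24 in the same order. Granule genes of immature neutrophils, which are made before the cells leave the marrow, had a median of -0.02. Of their 9 changes 3 were positive. Higher at unadjusted p below 0.05 (limma) were 2 of 9, Lcn2 (1.00) and Chil3 (0.63), both named after their values were seen. That count was 0 without the vehicle array of animal 54 and 1 with place as a covariate. Elane on this list was at the floor on all 13 arrays. Interferon response genes had a median of -0.0043, inflammatory NF-kB genes 0.00 and glucocorticoid response genes 0.02. At unadjusted p below 0.05, 3 of 15 NF-kB genes were higher and 2 lower, and 2 of 11 glucocorticoid genes were higher.

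**Figure D2:**
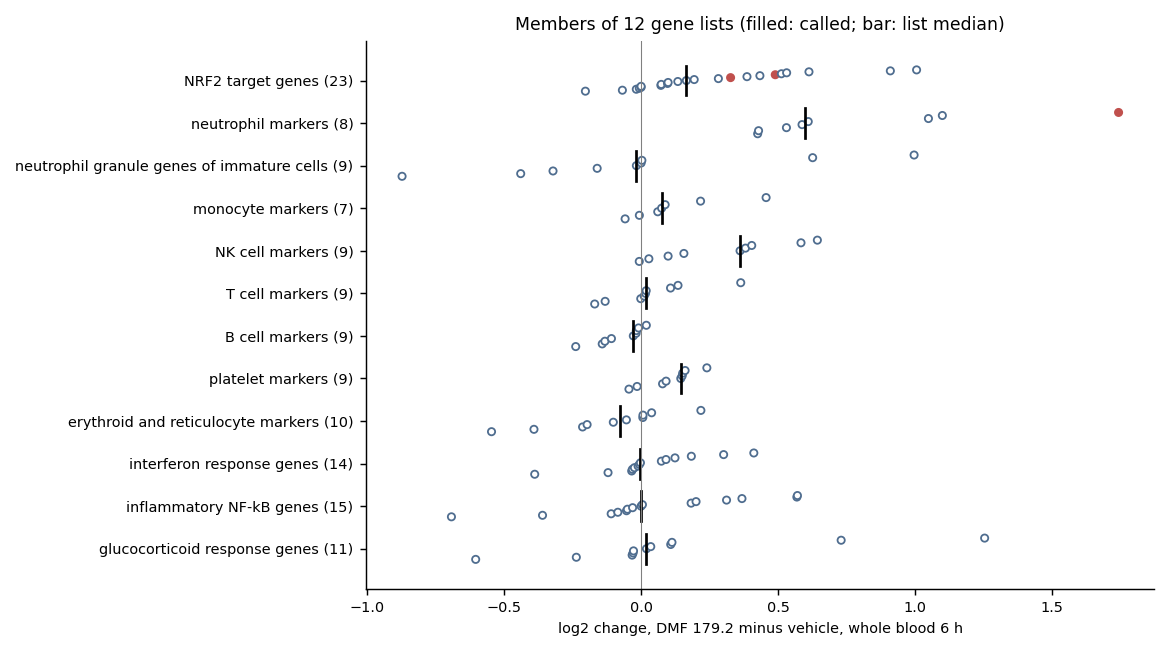
Log2 change, DMF 179.2 minus vehicle at 6 h, of each measured member of 12 gene lists, with the number of members in brackets. Points are genes, filled where called, and vertical bars are list medians. Of the 3 filled points, Prdx1 and Txnrd1 are NRF2 targets and Mmp8 is a neutrophil marker, and the neutrophil marker median is 0.60.

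Slc40a1 encodes ferroportin, the cellular iron exporter (chr1:45908070-45926532). It ranged from 8.68 to 9.92 with a median of 9.24 on DMF arrays, against 6.60 to 8.41 with a median of 7.77 on vehicle arrays. The groups did not overlap, and the change was 1.54 ± 0.33, or 2.92-fold (limma, adjusted p = 0.0395). A second Slc40a1 probe set differed by 1.17, at 6.41 on DMF arrays and 5.24 on vehicle arrays.

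Fbxl5, the iron-sensing F-box subunit of the ubiquitin ligase that degrades iron regulatory protein 2 (chr5:43744618-43782149), ranged from 9.54 to 10.25 with a median of 9.86 on DMF arrays, against 8.37 to 9.59 with a median of 9.38 on vehicle arrays. A low value of animal 51 widened the vehicle range, and the DMF array of animal 67 was below the highest vehicle array. The change was 0.67 ± 0.15 (adjusted p = 0.0395 by limma), and 0.49 without animal 51 (adjusted p = 0.226).

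Pla2g7, the phospholipase that breaks down platelet-activating factor (chr17:43567994-43612202), ranged from 6.42 to 8.63 with a median of 7.93 on DMF arrays, against 5.96 to 6.89 with a median of 6.53 on vehicle arrays. The array of animal 67 was the single DMF array within the vehicle range. The Pla2g7 change was 1.32 ± 0.29, or 2.50-fold (limma, adjusted p = 0.0395). Abhd15, a hydrolase-fold protein known from fat cells (chr11:77515117-77520628), ranged from 5.46 to 6.86 with a median of 6.15 on DMF arrays, against 3.97 to 5.73 with a median of 4.98 on vehicle arrays. Its groups overlapped, with a change of 1.19 ± 0.26 (adjusted p = 0.0395, limma) and of 1.49 with place. Another Abhd15 probe set was dim and differed by 0.27, at 3.84 on DMF arrays and 3.57 on vehicle arrays.

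The last 2 called genes are best known from other tissues. Acta2, smooth muscle actin (chr19:34240336-34255585), ranged from 5.31 to 6.81 with a median of 6.06 on DMF arrays, against 4.53 to 5.05 with a median of 4.88 on vehicle arrays, and the groups did not overlap. Its change was 1.14 ± 0.24, or 2.20-fold (limma, adjusted p = 0.0259). The probe set tested carries the suffix for probes shared between transcripts, and a second Acta2 probe set was at the floor on all 13 arrays. Piwil2, a PIWI protein of the germline (chr14:70372477-70436898), ranged from 5.92 to 7.07 with a median of 6.39 on DMF arrays, against 4.23 to 5.52 with a median of 5.05 on vehicle arrays. These groups did not overlap either, and the change was 1.49 ± 0.34 (adjusted p = 0.0485 by limma).

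How far the 12 calls rest on single arrays differed between genes. Rnf128, Clec4n, Prdx1 and Txnrd1 were called in each of the 13 fits that left out 1 array, and Mmp8 in 12, missing without animal 71 (adjusted p = 0.0580). Acta2 was called in 8 of the 13 fits, Slc40a1 in 6, Fbxl5 in 5, Abhd15 and Pla2g7 in 3 each, and Txn1 and Piwil2 in 2 each. Leaving out DMF animal 68, 69, 71 or 74 ended the calls of these 7 genes each time, and the count of called genes was then 5, 5, 4 and 5. It was 8 without DMF animal 72 or 73 or vehicle animal 51. For every one of the 12 genes the change stayed positive in all 13 fits, a direction that their choice on these arrays favours. The highest adjusted p was 0.226, for Fbxl5.

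At the places both groups held, 6 and 7, Rnf128 was at 6.80 and 6.73 on DMF arrays, against 4.58 and 3.51 on vehicle arrays. Every DMF array lay above every vehicle array for Rnf128, so this order holds at any place and is no check on place. Tra2b, a splicing regulator, fell along the places among DMF mice, at 7.10, 7.20 and 6.84 for places 5, 6 and 7 and 6.32, 6.45, 6.63 and 5.41 for places 9 to 12. Vehicle mice had 6.84, 7.65, 6.998, 6.80, 6.90 and 7.05 at places 1, 2, 3, 4, 6 and 7. The Tra2b change was -0.48 ± 0.34 without place and 0.24 ± 0.24 with it (limma, adjusted p = 0.941 and 1). Restricting the comparison to places 5 to 8 left 3 DMF and 2 vehicle arrays, with 0 genes called by limma and 601 at unadjusted p below 0.05. In that small set all 12 changes were positive, from 0.32 for Txnrd1 to 2.60 for Rnf128. The 12 genes were chosen on arrays that include these, so that direction is favoured by the choice.

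**Figure D3:**
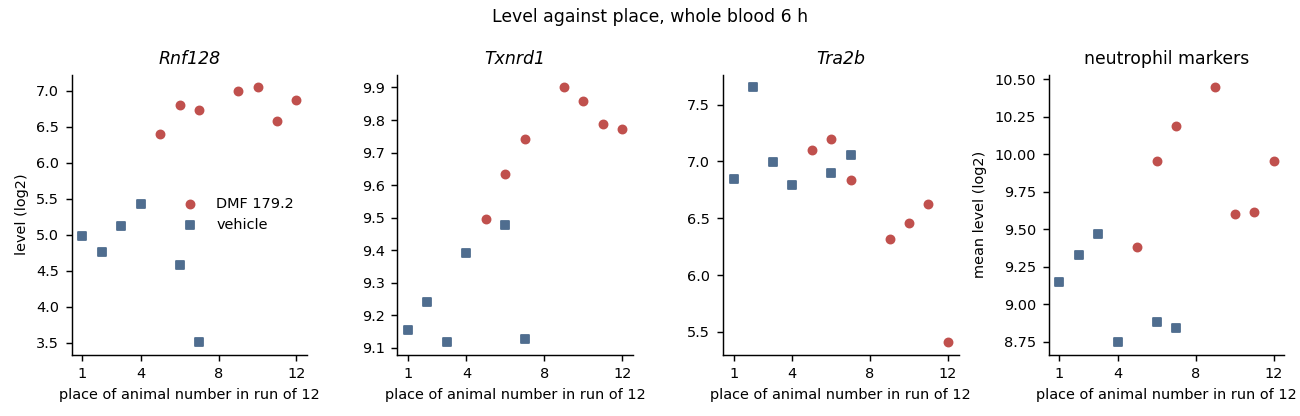
Level (log2) of Rnf128, Txnrd1 and Tra2b, and the mean level (log2) of 8 neutrophil markers, against the place of the animal number in its run of 12, at 6 h. Circles are DMF 179.2 mice and squares are vehicle mice, 1 array each, and the vertical scales do not start at 0. DMF mice hold places 5 to 12 and vehicle mice places 1 to 7, and Tra2b is lowest, at 5.41, at place 12.

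The dose groups of the same time were set beside these values. DMF 179.2 against DMF 100 gave 0 called genes by limma (0.0%), with 497 at unadjusted p below 0.05 (2.91%). The 12 genes differed by 0.25 to 1.01, and since they were chosen for high values on the same DMF 179.2 arrays, the direction of these differences is favoured by the choice. Rnf128 averaged 6.78 ± 0.23 after DMF 179.2 and 5.77 ± 0.53 after DMF 100 (SD, 7 and 8 arrays), a difference of 1.01 ± 0.23 with a 95% interval of 0.55 to 1.47 (limma, adjusted p = 0.375). Leaving out the DMF 100 array of animal 64 gave 1 called gene.

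Against MEF salts, DMF 179.2 gave 4 called genes (0.0234%), all higher, and these were Rnf128, Clec4n, Prdx1 and Txnrd1. Rnf128 differed by 1.38 ± 0.23 (adjusted p = 0.000765, limma), at 6.78 ± 0.23 after DMF 179.2 and 5.39 ± 0.35 after MEF salts (SD). Clec4n differed by 1.21 ± 0.22 (limma, adjusted p = 0.00571), Prdx1 by 0.33 ± 0.05 (0.000434) and Txnrd1 by 0.43 ± 0.09 (0.0161). With place, Rnf128 and Prdx1 were called, and 2 genes were called without DMF animal 74. The doses differ in compound and amount, so no order of potency can be read from this.

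DMF 179.2 against DMF 100 plus MEF salts gave 0 called genes by limma (0.0%), with 1361 at unadjusted p below 0.05 (7.96%). The 12 genes, chosen on the same DMF 179.2 arrays, differed by 0.10 to 0.80, a direction that the choice favours here too. The 3 genes of smallest p there were not called. Cd177, a neutrophil surface protein, averaged 6.75 ± 0.25 after DMF 179.2 and 5.32 ± 1.01 after the combination (SD, adjusted p = 0.170 by limma), and Gpr3 and Nrn1l lay near the floor, with differences of -0.15 and -0.12. Without animal 83, 85, 86 or 88 of the combination, 2, 2, 5 and 1 genes were called. Against vehicle, Cd177 had a change of 0.73 ± 0.34 (limma, adjusted p = 0.589).

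The other treatments were also compared with the same vehicle arrays, so the following values share their controls. DMF 100 against vehicle gave 0 called genes and MEF salts 0 (limma, 1102 and 973 at unadjusted p below 0.05, or 6.45% and 5.69%), and the combination gave 1 (0.00585%), Rnf128. For Rnf128 the changes were 2.05 ± 0.25 for DMF 179.2, 1.04 ± 0.24 for DMF 100, 1.51 ± 0.24 for the combination and 0.67 ± 0.24 for MEF salts. For Prdx1 they were 0.33, 0.08, 0.19 and -0.0019 in the same order. The 12 changes had medians of 1.26, 0.68, 0.90 and 0.41 in that order, the first being the comparison in which they were called.

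**Figure D4:**
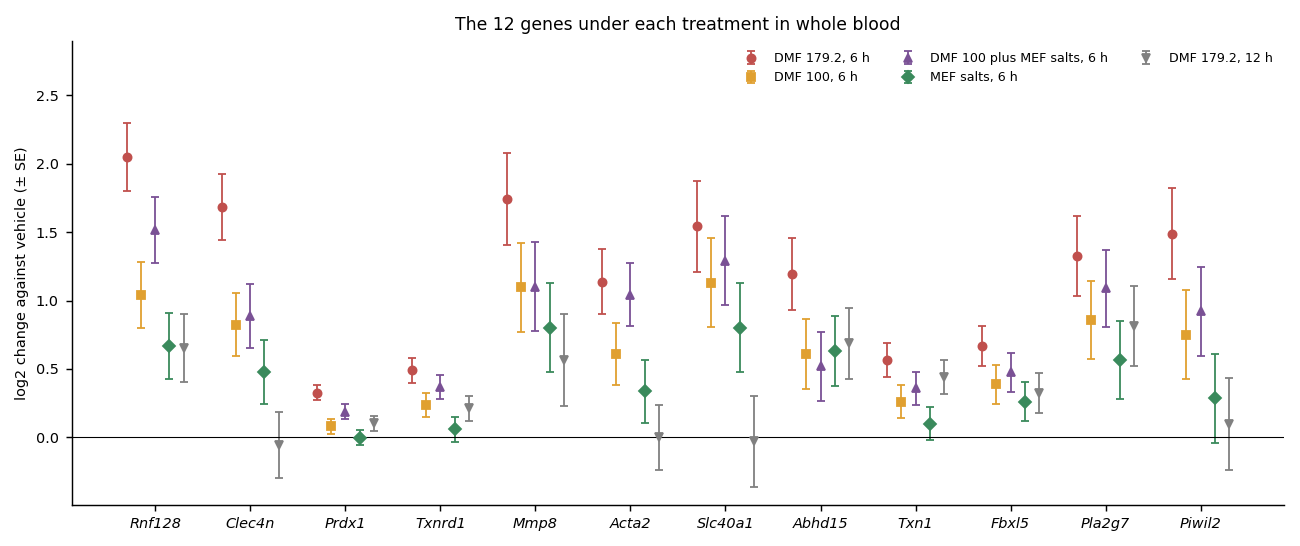
Log2 change against vehicle (± SE of the fit) of the 12 genes, which were called for DMF 179.2 at 6 h, under each treatment in whole blood at 6 h and for DMF 179.2 at 12 h. The 6 h changes share the 6 vehicle arrays. Circles, DMF 179.2 at 6 h, are the highest for each of the 12 genes, an order that the choice of genes in that comparison favours.

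At 12 h after the same dose none of the 12 genes was called, and 10 of their changes were positive, with a median of 0.27. DMF 179.2 against vehicle at 12 h gave 55 called genes (0.322%), 45 higher (0.263%) and 10 lower (0.0585%). This count moved widely with single arrays, to 5 and 36 without DMF animals 19 and 20, and to 6, 10, 84, 9 and 202 without vehicle animals 1, 2, 3, 4 and 7. Rnf128 averaged 4.89 ± 0.43 on DMF arrays and 4.23 ± 0.29 on vehicle arrays at 12 h (SD), a change of 0.66 ± 0.25 (limma, adjusted p = 0.247). Txn1 had 0.44 ± 0.12 (adjusted p = 0.0916) and Slc40a1 -0.03 ± 0.33. Neutrophil markers had a median change of 0.13 at 12 h.

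The difference between the effects, 6 h minus 12 h, was called for 5 genes (0.0292%). The count was 3 without DMF animal 68 of 6 h or vehicle animal 1, 2 or 5 of 12 h, 9 without DMF animal 67 or vehicle animal 53 of 6 h or vehicle animal 3 or 7 of 12 h, and 10 without vehicle animal 54 of 6 h. Of the 12 genes Clec4n was among them, with an effect at 6 h larger by 1.74 ± 0.34 (limma, adjusted p = 0.0162). The 12 genes were chosen on the same 6 h arrays, so a larger effect at 6 h is favoured by the choice. At 12 h Clec4n averaged 2.95 ± 0.11 on DMF arrays and 3.01 ± 0.39 on vehicle arrays (SD). With place as a covariate the Clec4n difference was 1.60 ± 0.37 and not called (adjusted p = 0.123). The Rnf128 difference was 1.39 ± 0.35 (adjusted p = 0.137, limma).

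For the other called differences the change at 12 h was called and that at 6 h was not. Zkscan8, a zinc finger protein, differed by -1.46 ± 0.25 (limma, adjusted p = 0.00217), with a change of -0.43 ± 0.18 at 6 h and 1.03 ± 0.18 at 12 h. At 12 h Zkscan8 averaged 7.43 ± 0.17 on DMF arrays and 6.40 ± 0.48 on vehicle arrays (SD), and 7.43 ± 0.28 on 5 arrays of naive mice, so the vehicle arrays stood below both. Crim1, a transmembrane protein that binds BMP growth factors, differed by -1.39 ± 0.24 (adjusted p = 0.00263, limma), with -0.48 ± 0.17 at 6 h and 0.91 ± 0.17 at 12 h. The vehicle array of animal 57 had Crim1 at 6.51, and the 6 h change was -0.15 without it. Mtmr11 and Rnf103 were the remaining called differences, at 0.52 and -0.97. Both genes were chosen for naming after their values were seen.

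Spleens of the same dose groups gave a further setting for the 12 genes. Between DMF 179.2 and vehicle, 3829 spleen genes were called at 6 h (22.4%), 2760 of them higher (16.1%) and 1069 lower (6.25%). Of the 12, 6 were called there, namely Clec4n, Prdx1, Txnrd1, Mmp8, Txn1 and Piwil2. Animal numbers were uneven here too, at 67 to 72 and 74 for DMF mice and 51 to 58 for vehicle mice. The part of place in the spleen values was not tested. Tra2b averaged 6.84 ± 0.97 on DMF and 8.50 ± 0.41 on vehicle spleen arrays (SD). Spleen arrays of 4 of the 8 vehicle mice had Cpa1, a gene of pancreatic acinar cells, at 10.25 to 11.34, against 2.23 to 2.29 on all DMF spleen arrays. The part of this tissue in the spleen values was not tested beyond leaving those mice out, which gave 2340 called genes. Txnrd1 rose in the spleen by 0.61 ± 0.06 (limma, adjusted p = 5.90e-12) and Nqo1 by 2.05 ± 0.25 (1.47e-08), against the 0.43 ± 0.28 of Nqo1 in blood that was not called. Rnf128 changed in the spleen by 0.20 ± 0.17 (limma, adjusted p = 0.53), at 4.28 ± 0.17 on DMF arrays and 4.08 ± 0.24 on vehicle arrays (SD).

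The difference between the effects in blood and spleen was tested within the 6 DMF and 6 vehicle mice that had both organs, and was called for 48 genes (0.281%). Of the 12, Rnf128 and Clec4n were called, with blood effects larger by 1.93 ± 0.22 (limma, adjusted p = 0.0180) and 1.39 ± 0.19 (adjusted p = 0.0372). The 12 genes were chosen on the same blood arrays, so a larger effect in blood is favoured by the choice. Nqo1 had -1.56 ± 0.33 and was not called (adjusted p = 0.0719). Without the vehicle mice that had Cpa1 in the spleen, which left 2, the differences were 1.68 ± 0.22 for Rnf128 and 1.73 ± 0.23 for Clec4n (adjusted p = 0.107 and 0.114), and 1 gene was called.

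**Figure D5:**
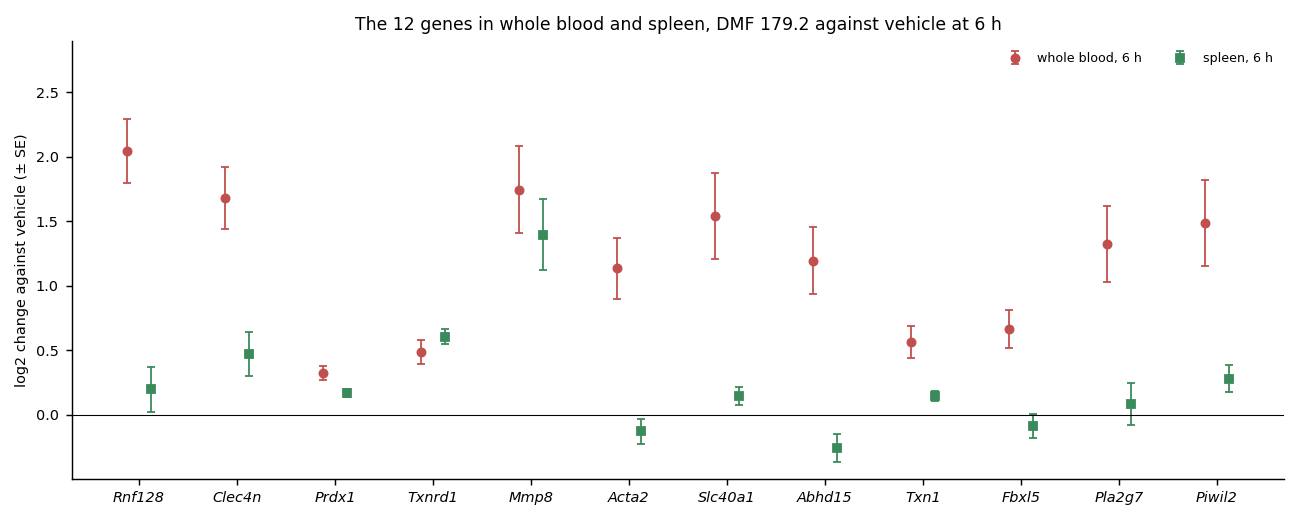
Log2 change (± SE of the fit), DMF 179.2 against vehicle at 6 h, of the 12 genes in whole blood (circles, 7 and 6 arrays) and in spleen (squares, 7 and 8 arrays). The genes were chosen for their blood values. The Rnf128 change is 2.05 in blood and 0.20 in spleen, and that of Txnrd1 is 0.49 and 0.61.

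The remaining genes of interest to fumarate exposure did not change detectably in blood at 6 h. Hcar2, the receptor for nicotinic acid that monomethyl fumarate also activates, ranged from 2.75 to 3.07 on DMF arrays and from 2.998 to 3.26 on vehicle arrays, near the floor, with a change of -0.10 ± 0.09 (limma, adjusted p = 1). Mt1, a metallothionein induced by zinc and stress, ranged from 3.24 to 4.58 with a median of 3.92 on DMF arrays, against 3.49 to 8.47 with a median of 3.84 on vehicle arrays. The value of 8.47 was that of animal 54, and the change of -0.60 ± 0.38 became 0.18 ± 0.26 without it.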

How the data were processed

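Values were the deposited log2 probe set summaries made by the authors. The tools listed per the submitters' processing notes are limma 3.4.5, R 2.11.1, GCRMA and RMA, and their steps are not given in the sources used here. Arrays of each organ and time share a floor and were taken as normalized apart, so levels are not compared between times or organs. A genome build of the array annotation is not given in the sources used here. Gene coordinates are those of RefSeq on GRCm38.p6, matched by symbol.

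Of 45141 probe sets, 104 were controls, 28898 had 1 gene in the platform annotation, 551 several and 15588 none. The 17097 genes were each tested by the probe set of highest mean over the blood arrays. limma 3.58.1 (in R 4.3.3) fitted 1 mean for each of the 11 groups of time and treatment over 78 whole blood arrays, and likewise over 72 spleen arrays, with moderated variances, 2-sided p-values and Benjamini-Hochberg adjustment within a comparison. The steps were tested on simulated data. Tables, exact tests and figures were made with the R package data.table (version 1.17.8), Python 3.11.15, pandas 2.3.3, numpy 2.4.6, scipy 1.17.1 and matplotlib 3.10.9. The deposited table has 400 columns of other organs that were not used. The number of arrays limits the precision.

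Genes named by rule were the called genes above the median level (up to 12 in each direction), up to 6 in each direction also called with place, up to 4 called members of each of 30 lists, Nqo1, Gclc, Hmox1, Mt1, Hcar2 and Tra2b in any case, and the 3 genes of smallest p for the difference between times and against each other dosed group, predicted and sex-specific genes left out. The comparison, lists and named genes were chosen with earlier results of these data known. Lists are described by counts and medians, without a test. Lists whose result is not given in the report are under other observations.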

Additional observations from a re-analysis of the deposited data

Results flagged for a closer look

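Among 46 groups of named genes, 7 held 1 array far from the rest by Dixon's test at the 95% level, and chance alone sets about 1 in 20 groups apart. Fbxl5 stood at 8.37 in vehicle animal 51, against 9.26 to 9.59 in the other vehicle mice. Hmox1 was 6.11 in DMF animal 67, against 7.08 to 7.51 in the other DMF mice. Mt1 reached 8.47 in vehicle animal 54, against 3.49 to 3.97 in the others of its group. Hcar2 was 2.75 in DMF animal 72, against 3.03 to 3.07, and Tra2b 7.65 in vehicle animal 52, against 6.80 to 7.05. Near the floor, Nrn1l was 2.27 in DMF animal 74, against 2.24 in the rest, and Gpr3 2.65 in vehicle animal 51, against 2.46 in the rest.

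The effect of DMF 179.2 differed between times by limma's interaction test for Clec4n (1.74, 6 h minus 12 h), Mtmr11 (0.52, near the floor), Crim1 (-1.39), Rnf103 (-0.97) and Zkscan8 (-1.46). Within animals it differed between organs for Rnf128 (1.93, blood minus spleen) and Clec4n (1.39), neither of which was called without the vehicle mice that had Cpa1 in the spleen.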

How the results depend on the processing

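The 12 calls at 6 h rest on the spread shared with the other blood groups. The count was 3 with only the groups compared (2 of the 12 genes, Rnf128 and Clec4n), 2 with only the 6 h arrays, 0 at shared places (limma, 601 at unadjusted p below 0.05) and 4 with neutrophil markers as a covariate. Further quantile normalization (12), leaving out dim genes (11), trended and robust variances (12), the mean of all probe sets (14), place (12), place as a line and a curve (13) and the RNA 3′ minus 5′ covariate (12) moved it by less than 1.5 times. Leaving out 1 array gave 4 to 16 genes. At 12 h the count of 55 became 0 with only the groups compared (limma, 987 unadjusted) and 8 with place, and 5 to 202 without 1 array. The 5 differences between times became 2 with only the groups compared and 3 with place, and 3 to 10 without 1 array. Against MEF salts the count was 2 with place and 2 to 5 without 1 array, against DMF 100 it was 0 to 1, and against the combination 0 to 5. The combination against vehicle gave 32 genes with place. Leaving out mice with Cpa1 in the spleen gave 2340 genes in the spleen and 1 for the difference between organs. Uncalled changes turned sign for Nqo1 (-0.0759 at shared places), Mt1 (0.0702 at shared places, and -0.81 to 0.18 without 1 array, the highest without animal 54), Hcar2 (0.0162 at shared places), Tra2b (0.24 with place, 0.245 with the curve, 0.0715 at shared places) and Gpr3 (0.0027 with place, 0.0022 with the curve). The neutrophil covariate, place for the other treatments, the organ difference and the Cpa1 rule were added after the data were seen. No paired analysis was possible because DMF and vehicle groups share no animal numbers, and the difference between organs was taken within animals.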

Other observations

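Outside the called genes, 15 uncalled genes had every DMF array above every vehicle array, and 8 had every DMF array below. The 15 include Gstm1, Mmp9 and S100a9, whose values are given above. The genes given here were chosen after their values were seen. Npc1, a lysosomal cholesterol transporter, ranged from 6.97 to 7.41 on DMF arrays and from 6.18 to 6.90 on vehicle arrays, a change of 0.59 ± 0.14 (limma, adjusted p = 0.102). Ahr, the aryl hydrocarbon receptor, ranged from 6.15 to 7.22 on DMF arrays and from 5.33 to 6.00 on vehicle arrays, a change of 1.17 ± 0.42 (adjusted p = 0.442, limma). Among genes below, the kinase Pim2 ranged from 7.58 to 7.999 on DMF arrays and from 8.05 to 8.54 on vehicle arrays (limma, adjusted p = 0.188). With place as a covariate, Lipa, lysosomal acid lipase (0.66), and Il1f9, an interleukin 1 family cytokine (1.77), were called higher and Lrrc56 (-0.52) lower.

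The remaining lists had no called member at 6 h. Their median changes were 0.04 for circadian clock genes, -0.04 for immediate early genes, 0.09 for ATF4 stress response genes, 0.02 for heat shock genes, -0.06 for p53 target genes, 0.09 for fatty acid oxidation and PPAR genes, -0.0050 for cholesterol synthesis genes, 0.0017 for hypoxia and glycolysis genes, -0.10 for zinc response genes, 0.03 for fumarate receptor and TCA cycle genes and -0.03 for proliferation genes. Among cell types, the medians were 0.00 for eosinophil, 0.03 for basophil and mast cell, -0.15 for dendritic cell, 0.20 for plasma cell, 0.00 for hepatocyte and 0.00 for endothelial markers. Genes that fell along the animal numbers had a median of -0.37, and 0.11 with place as a covariate. They were listed with earlier results of these data known. DMF mice hold the later places, so the direction without place is favoured by that choice.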
